A study of Rattus norvegicus with 11 samples.

Results

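Type II (TII) cells of the rat alveolus that had been kept in culture to day 7 were compared with type I (TI) cells measured straight after isolation from the lung, to ask how far the culture fell short of, or departed from, the TI cells that line the alveolus. The comparison holds 7 of the 11 arrays of the study: the 3 whose description gives cultured TII cells (day 7 in the title) and the 4 whose description gives freshly isolated TI cells (day 0). The other 4 arrays, of TII cells at day 0, show where the culture started. All 11 arrays hold total RNA of Rattus norvegicus with no treatment, genotype, strain or age in the labels. The groups rest on the descriptions, because the source given for all 11 arrays is TI cells. Nothing in the labels tells whether the arrays within a group stem from different animals or cultures, so p-values measure only the spread between these arrays, which may be technical. In bulk RNA, fewer cells of a type and less RNA per cell cannot be told apart.

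TI cells are thin and flat and cover most of the alveolar surface, where gas is exchanged. TII cells are cuboidal, make and recycle surfactant in lamellar bodies, and serve as progenitors of TI cells. TII cells plated on plastic flatten, lose surfactant and gain some TI proteins, and such cultures have been used as a stand-in for TI cells.

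The deposited values are log2 signals of 8740 probe sets (controls left out), and differences below are cultured TII minus fresh TI on that scale with the standard error (SE) of the fit. Values per group are means ± SD over 3 cultured and 4 fresh TI arrays. A probe set was called at a Benjamini-Hochberg adjusted p under 0.05 in limma. Of 8740 probe sets, 2111 (24.2%) were called higher in cultured TII and 3124 (35.7%) lower. With 1 probe set for each of 4736 genes, 1221 (25.8%) were called higher and 1619 (34.2%) lower, and the median difference over all genes was -0.11. At least a 2-fold difference was found for 320 called genes (6.76%) that were higher and for 91 (1.92%) that were lower. After quantile normalization these counts were 246 and 121, and with each array centred and given a common SD 286 and 106. The cultured and fresh TI arrays did not overlap for 2734 genes (57.7%). Calls differed with brightness: 113 of the 1748 dimmest were higher against 692 lower, while 856 of the 1748 brightest were higher against 455 lower. After each array was centred on its median, 1333 genes were higher and 1341 lower. With a common SD as well, 1274 were higher and 1265 lower. Signals were more spread on the cultured arrays (SD over probe sets 1.95 to 1.97) than on the fresh TI arrays (1.77 to 1.85), and the part of this in the results was not tested. Pearson r across probe sets was 0.986 to 0.994 within the culture, 0.978 to 0.996 within fresh TI and 0.913 to 0.945 between them. For beta-actin, a control read near both transcript ends, the 3' signal less the 5' signal was -0.33 to -0.083 on the cultured arrays and 0.212 to 0.425 on the fresh TI arrays. This difference of -0.50 had p = 0.0571 in an exact two-sided permutation test (0.114 adjusted over the 2 controls), and 0.0571 is the smallest p that 3 against 4 arrays allow. For GAPDH the ranges overlapped, at 0.302 to 0.451 and 0.412 to 0.685 (exact permutation p = 0.114). The part of RNA integrity in the gene results was not tested.

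**Figure D1:**
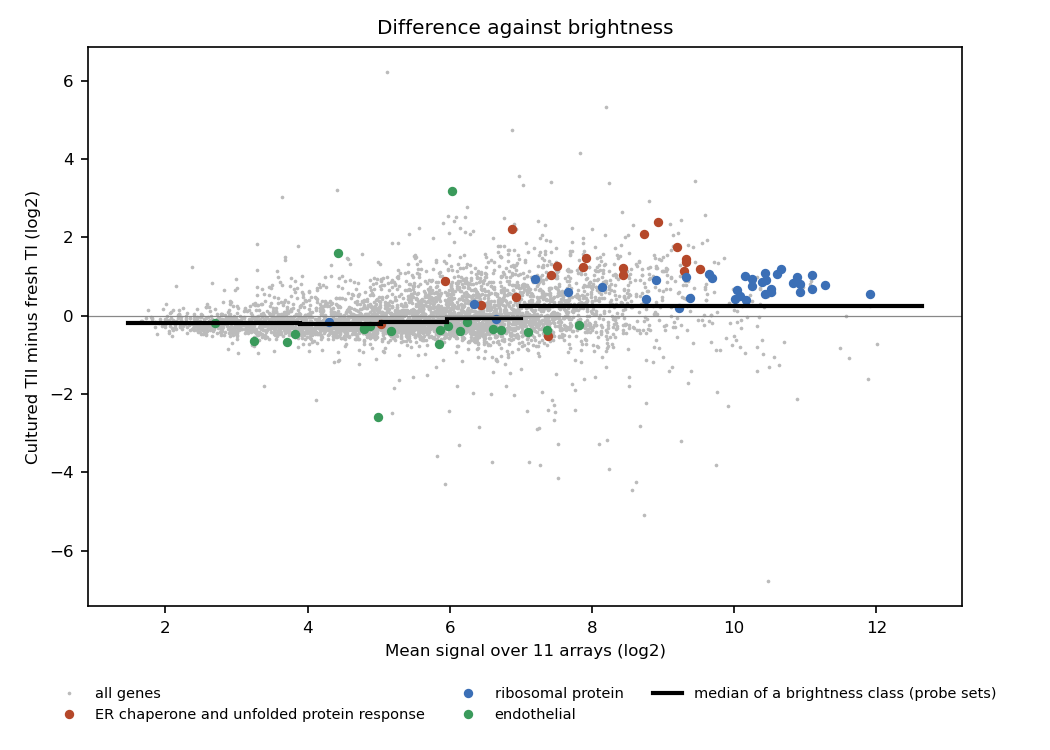
Difference between cultured TII and fresh TI (log2, vertical) against mean signal over 11 arrays (log2, horizontal) for 4736 genes, with 3 gene lists in colour and the medians of 5 equal classes of probe sets by brightness as black bars. The bars run from -0.19 in the dimmest class to 0.25 in the brightest, where most ribosomal protein genes lie.

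The genes of the TI list did not move together. Some lay near the TI level in culture and others part of the way. Others stayed at the TII level or fell below both fresh types, and Timp3 lay above both. Of 28 listed TI genes, 18 were measured. In the culture 13 were called lower, 1 higher and 4 not called, where 34.2% of all genes were called lower and 25.8% higher. The median difference was -0.80 against -0.11 over all genes. For the main TI markers the fresh arrays differed as their labels give: Pdpn, Aqp5, Ager, Cav1 and Akap5 were each higher in fresh TI than in fresh TII, by 4.48, 4.30, 3.08, 3.75 and 3.24. Tspan8, also on the list, was lower in fresh TI than in fresh TII. Fresh TI arrays also carried TII signal, with a TII list mean of 7.09 to 7.80 against 6.76 to 6.81 on cultured arrays. Hopx and Rtkn2, also on the list, were not among the genes measured here.

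Pdpn (podoplanin, the apical membrane glycoprotein used to mark TI cells) was far apart in the fresh cells and near the TI level in the culture. Its signal was 9.20, 9.37 and 9.47 on the cultured arrays and 10.03, 10.12, 10.23 and 10.17 on the fresh TI arrays, while fresh TII arrays lay at 5.57 to 5.75. The cultured arrays thus lay between the fresh groups, near the TI end, with no overlap. The difference from fresh TI was -0.79 (SE 0.08, limma adjusted p = 6.84e-06, 1.73-fold lower) and that from fresh TII 3.69. Akap5 (an anchoring protein for protein kinase A) was 6.18 ± 0.41 in culture against 6.96 ± 0.40 in fresh TI, a difference of -0.77 (limma adjusted p = 0.00668) with overlapping arrays, and 3.72 in fresh TII. Scnn1g (the gamma subunit of the epithelial sodium channel) was not called, at 6.88 ± 0.30 in culture, 7.03 ± 0.09 in fresh TI and 6.08 in fresh TII; without cultured TII replicate 1 it was called (-0.30). Vegfa (the endothelial growth factor) was 8.71 ± 0.07 against 8.94 ± 0.09, a difference of -0.23 with limma adjusted p = 0.0257 that was not called without cultured TII replicate 3 (adjusted p = 0.0958) or fresh TI replicate 4 (adjusted p = 0.0581). Its other probe sets were all called lower, at -0.47, -0.42 and -0.73. On these, fresh TI was above fresh TII by 2.11, 2.75 and 2.44.

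Aqp5 and Ager moved only part of the way. Aqp5 (the water channel of the TI apical membrane) read 8.09, 7.21 and 6.55 on the cultured arrays, 10.38, 10.70, 10.62 and 10.52 on the fresh TI arrays and 6.17 to 6.32 on fresh TII arrays. The cultured arrays spread widely, lay above fresh TII and below fresh TI, and overlapped neither. The culture was 9.66-fold below fresh TI (difference -3.27, SE 0.25, limma adjusted p = 3.98e-07). Ager (the RAGE receptor, abundant on the TI basal membrane) read 10.86, 10.39 and 10.11 in culture and 12.62, 12.53, 12.56 and 12.64 in fresh TI, with fresh TII at 9.45 to 9.61. The 3 cultured arrays again lay between the fresh groups, 4.39-fold below fresh TI (difference -2.13, SE 0.13, limma adjusted p = 6.78e-08). Icam1 (an adhesion molecule of the TI surface) was 9.89 ± 0.21 against 10.69 ± 0.05, with 9.61 in fresh TII.

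Cav1 (caveolin-1, the coat protein of the caveolae that fill TI cells) stayed at the TII level. It read 5.97, 6.07 and 5.54 in culture, 9.28, 9.49, 10.12 and 9.80 in fresh TI and 5.72 to 6.02 in fresh TII. The cultured and fresh TII arrays overlapped, and the culture was 14-fold below fresh TI (difference -3.81, SE 0.18, limma adjusted p = 5.93e-09). Its difference from fresh TII was -0.06 (limma adjusted p = 0.860). Aqp1 (a water channel also found in endothelium) followed the same order, at 3.99 ± 0.10 in culture, 6.57 ± 0.49 in fresh TI and 4.18 in fresh TII. Col4a3 (a chain of alveolar basement membrane collagen) was 3.60 ± 0.14 against 4.40 ± 0.35, with 3.55 in fresh TII.

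For other genes of the TI list the culture lay below both fresh types. Every cultured array was below all 8 fresh arrays for Sec14l3, Cyp4b1, Tspan8 and Igfbp6, 4 of the 18 measured TI genes; this held for 493 genes in all (10.4%). Sec14l3 (a lipid-binding protein of lung epithelium) read 6.56, 4.93 and 4.70 in culture, 10.59, 10.24, 10.49 and 10.65 in fresh TI and 9.23 to 9.57 in fresh TII. The difference of -5.10 (SE 0.33, limma adjusted p = 8.55e-08) was 34.2-fold, and 1 cultured array stood above the other 2. Cyp4b1 (a lung cytochrome P450) was 15.1-fold lower than in fresh TI, at 5.56 ± 0.51 against 9.48 ± 0.15 with 9.0 in fresh TII. Cyp4b1 is also on the airway and xenobiotic lists. Tspan8 (a tetraspanin) was 5.92 ± 0.58 against 8.34 ± 0.09, with 8.54 in fresh TII. Igfbp6 (which binds insulin-like growth factor II) was 6.03 ± 0.16 against 8.91 ± 0.37, with 6.44 in fresh TII.

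The exception was Timp3 (an inhibitor of metalloproteinases held in the matrix). It read 10.14, 9.87 and 9.85 in culture, 7.80, 7.58, 7.64 and 7.95 in fresh TI and 6.72 to 6.87 in fresh TII. All cultured arrays were above all fresh arrays, and the difference from fresh TI was 2.21 (SE 0.10, limma adjusted p = 4.87e-09). P2rx7, P2rx4 and Gnb1 (ATP-gated channels and a G-protein subunit) were not called, at differences of -0.34, 0.24 and -0.05. P2rx7 was called without fresh TI replicate 2 or 3 (-0.42 and -0.45), and P2rx4 without cultured TII replicate 1 or fresh TI replicate 2 (0.38 and 0.33). Gnb1 has other probe sets at 1.14 and 0.33.

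**Figure D2:**
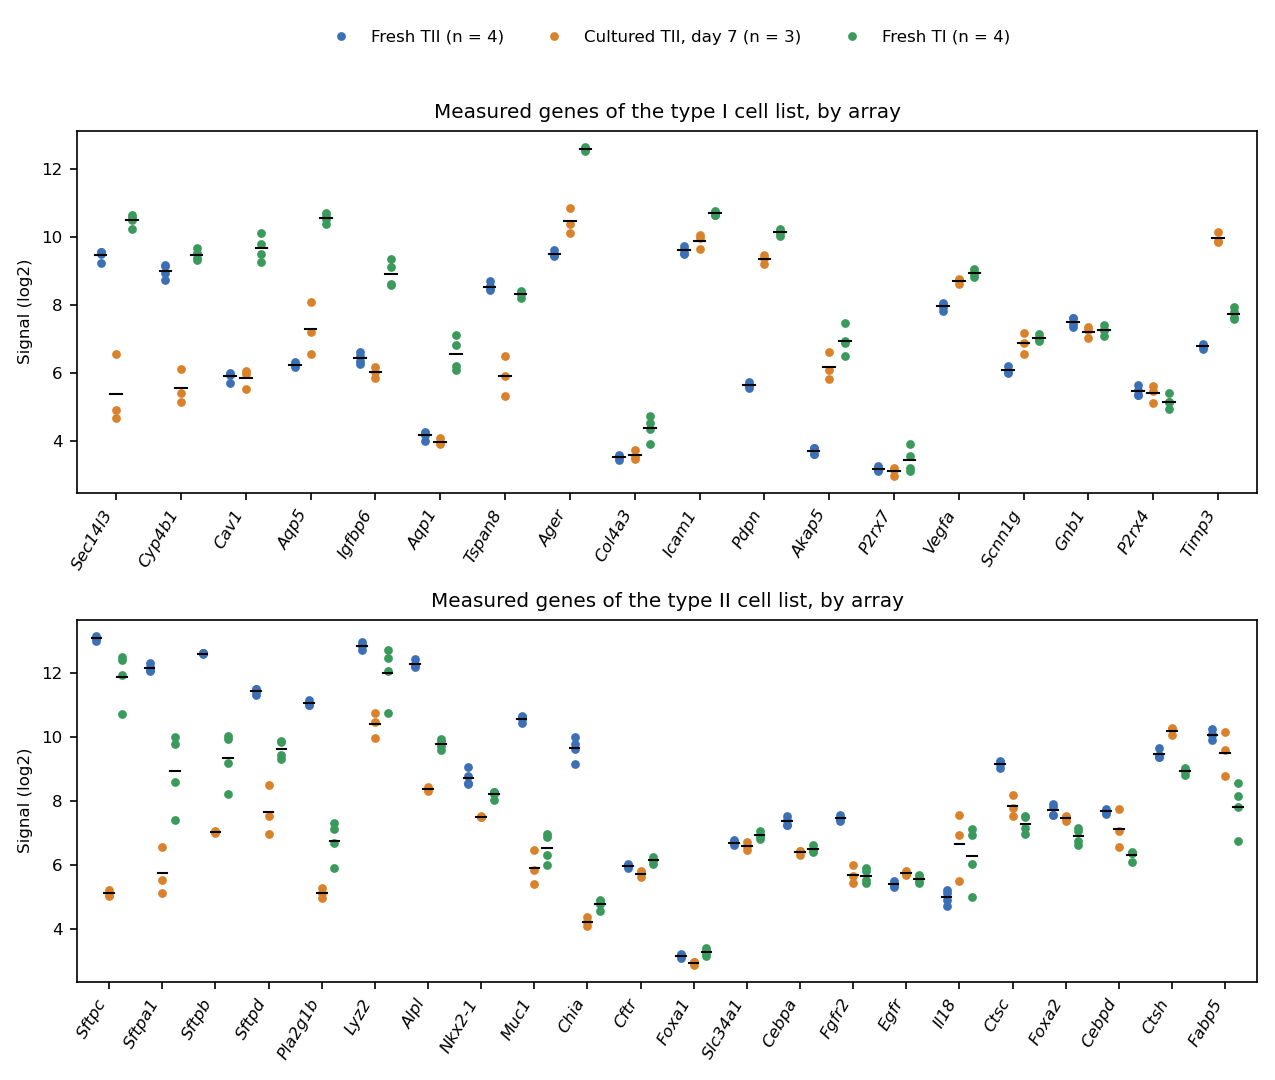
Signal (log2) on each array for the 18 measured genes of the TI list (top) and the 22 of the TII list (bottom); each point is 1 array and the bar is the group mean. Pdpn of the culture lies near fresh TI, Cav1 at fresh TII, and Sec14l3 and Sftpc below both.

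Most genes of the TII list were lower in culture even than in the fresh TI preparation. Of 22 measured TII genes, 13 were called lower, 5 higher and 4 not called (median -0.39). The cultured arrays were below all 8 fresh arrays for 11 of the 22. Over all genes 34.2% were called lower, 25.8% were called higher and 10.4% lay below all fresh arrays. Sftpc (surfactant protein C, made in the lung by TII cells) read 5.24, 5.09 and 5.04 in culture and 11.94, 12.41, 12.51 and 10.73 in fresh TI, against 12.99 to 13.16 in fresh TII. This was the lowest difference of all genes, -6.77 (SE 0.31, limma adjusted p = 4.87e-09, 109-fold). The fresh TI arrays therefore carried a high Sftpc signal, and fresh TI replicate 4 was the lowest of them. Without that array the difference was -7.16.

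The other surfactant proteins were also lower. Sftpa1 was 5.76 ± 0.74 against 8.96 ± 1.21 in fresh TI, a difference of -3.20 (limma adjusted p = 0.000203). Sftpb was 7.04 ± 0.05 against 9.35 ± 0.84, a difference of -2.31 (limma adjusted p = 7.07e-05). Sftpd was 7.68 ± 0.76 against 9.62 ± 0.29, a difference of -1.95. Without fresh TI replicate 4 the differences of Sftpa1 and Sftpb were -3.72 and -2.69. The mean over the measured TII list was 7.09 to 7.80 on fresh TI arrays, 6.76 to 6.81 on cultured and 9.04 to 9.14 on fresh TII arrays; the part of TII cells among the fresh TI cells in these differences was not tested.

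Among other TII genes, Pla2g1b (a secreted phospholipase) was 5.14 ± 0.17 against 6.77 ± 0.62, Lyz2 (lysozyme) 10.40 ± 0.40 against 12.01 ± 0.87, and Alpl (alkaline phosphatase) 8.39 ± 0.07 against 9.79 ± 0.15. Nkx2-1 (the transcription factor that directs lung epithelium and surfactant genes) was 7.52 ± 0.03 against 8.22 ± 0.13, with 8.74 in fresh TII, a difference of -0.70 (limma adjusted p = 0.00029). Muc1 and Chia, high in fresh TII at 10.58 and 9.65, were -0.64 and -0.55 from fresh TI, and the call of Muc1 (adjusted p = 0.0399 in limma) was lost under 11 of the alternatives. These include leaving out fresh TII replicate 1, 2 or 3, cultured TII replicate 2 or 3, or fresh TI replicate 2 or 3, with limma adjusted p up to 0.196. Chia was not called without cultured TII replicate 2 (-0.48, limma adjusted p = 0.0533). Cftr, Foxa1 and Slc34a1 were lower by small amounts, at -0.42, -0.35 and -0.34. Foxa1 was not called after quantile normalization (-0.18, limma adjusted p = 0.0661) or with a common SD (-0.13, limma adjusted p = 0.190). The other probe sets of Slc34a1 gave -0.51, -0.45, -0.13 (not called) and 0.27 (called higher). On these, fresh TI was above fresh TII by 0.14 to 0.39. Cebpa, Fgfr2, Egfr and Il18 were not called, at -0.09, 0.03, 0.17 and 0.40.

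5 TII genes were higher in culture than in fresh TI. Fabp5 (a fatty acid carrier) was 9.52 ± 0.69 against 7.83 ± 0.77 with 10.08 in fresh TII, a difference of 1.69 (limma adjusted p = 0.0018). Ctsh (the cathepsin that trims surfactant proproteins) was 10.20 ± 0.11 against 8.95 ± 0.10 and lay above all fresh arrays. Ctsc and Foxa2 differed by 0.55 and 0.57, and Ctsc was not called without cultured TII replicate 3 (0.37, limma adjusted p = 0.0539). Cebpd differed by 0.81 on the probe set used, by 0.99 on another and by -0.04 on the last.

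A few genes far apart between the fresh types ended near the TI level. They were picked for that, so their values are a description: of the genes called and at least 4-fold apart between the fresh groups, Hp, Cldn3, Bmp3, Tc2n, Zfp36l1 and Gp2 had the intervals nearest 0. Hp (haptoglobin) read 5.29, 5.22 and 5.22 in culture, 5.22, 5.35, 5.41 and 5.28 in fresh TI and 7.5 on average in fresh TII. Cldn3 (a tight junction protein) was 8.28 ± 0.50 against 8.33 ± 0.15, with 10.74 in fresh TII. Bmp3 was 4.26 against 4.43 with 6.93, Tc2n 4.72 against 4.49 with 7.94, and Zfp36l1 7.87 against 7.76 with 10.17. Gp2 was called (difference -0.33), but not after quantile normalization (limma adjusted p = 0.0510) or with a common SD (limma adjusted p = 0.111). Tc2n was called higher in both of these settings (0.35 in each, limma adjusted p = 0.0293 and 0.0402). Cldn3 was called lower after quantile normalization (-0.41, limma adjusted p = 0.0496). All 6 were genes that are lower in fresh TI than in fresh TII. Of all 4736 genes, 172 (3.63%) had every cultured array between non-overlapping fresh groups, and 440 had every cultured array within the fresh TI range. Within that range lay 0 of the 18 measured TI genes and 0 of the 22 measured TII genes.

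Among the 12 genes highest in culture were genes of matrix, the contractile cytoskeleton and secreted signals. For 774 genes (16.3%) every cultured array was above every fresh array. Spp1 (osteopontin, a secreted matrix and cytokine-like protein) read 9.45, 10.06 and 10.30 in culture, 3.58, 4.13, 4.12 and 3.06 in fresh TI and 2.73 to 3.14 in fresh TII. The gap between the lowest cultured and the highest fresh array was wide, and the difference of 6.21 (SE 0.25, limma adjusted p = 1.32e-09) was 74.3-fold. Fn1 (fibronectin) read 10.61, 10.90 and 10.69 against 7.34, 7.62, 7.19 and 7.12, with 4.78 to 5.25 in fresh TII. It was 10.7-fold higher than in fresh TI (difference 3.42, limma adjusted p = 1.39e-09), and its 4 other probe sets gave 1.94 to 3.06.

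F3 (tissue factor, which starts coagulation) read 10.84, 10.76 and 10.42 in culture and 5.27, 5.42, 5.56 and 5.14 in fresh TI. It was also high in fresh TII, at 9.09 to 9.36, and fresh TI was below fresh TII by -3.87. The culture was 40.1-fold above fresh TI (difference 5.33, SE 0.12, limma adjusted p = 3.31e-11). Kng2 (a kininogen) read 10.33, 10.09 and 10.43 against 6.01, 6.31, 6.17 and 6.04, with 7.67 on average in fresh TII, and was 17.8-fold higher. Areg (amphiregulin, an EGF receptor ligand) was 12-fold higher, at 8.99 ± 0.23 against 5.41 ± 0.04. Clu (clusterin) was 10.9-fold higher at 11.94 ± 0.14 against 8.49 ± 0.26, with 8.55 in fresh TII.

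Hmox1 (heme oxygenase, induced by heme and oxidative stress) was 9.94 ± 0.86 against 6.54 ± 0.95, a difference of 3.40 (SE 0.45, limma adjusted p = 5.06e-05) with wide spread in both groups. Edn1 (endothelin-1) was 7.73 ± 0.08 against 4.53 ± 0.28. Pkib (an inhibitor of protein kinase A) was 6.49 ± 0.08 against 3.29 ± 0.36. Gja1 (a connexin of gap junction channels) read 8.34, 8.24 and 8.41 in culture and 5.34, 5.89, 5.74 and 5.20 in fresh TI, a difference of 2.79.

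**Figure D3:**
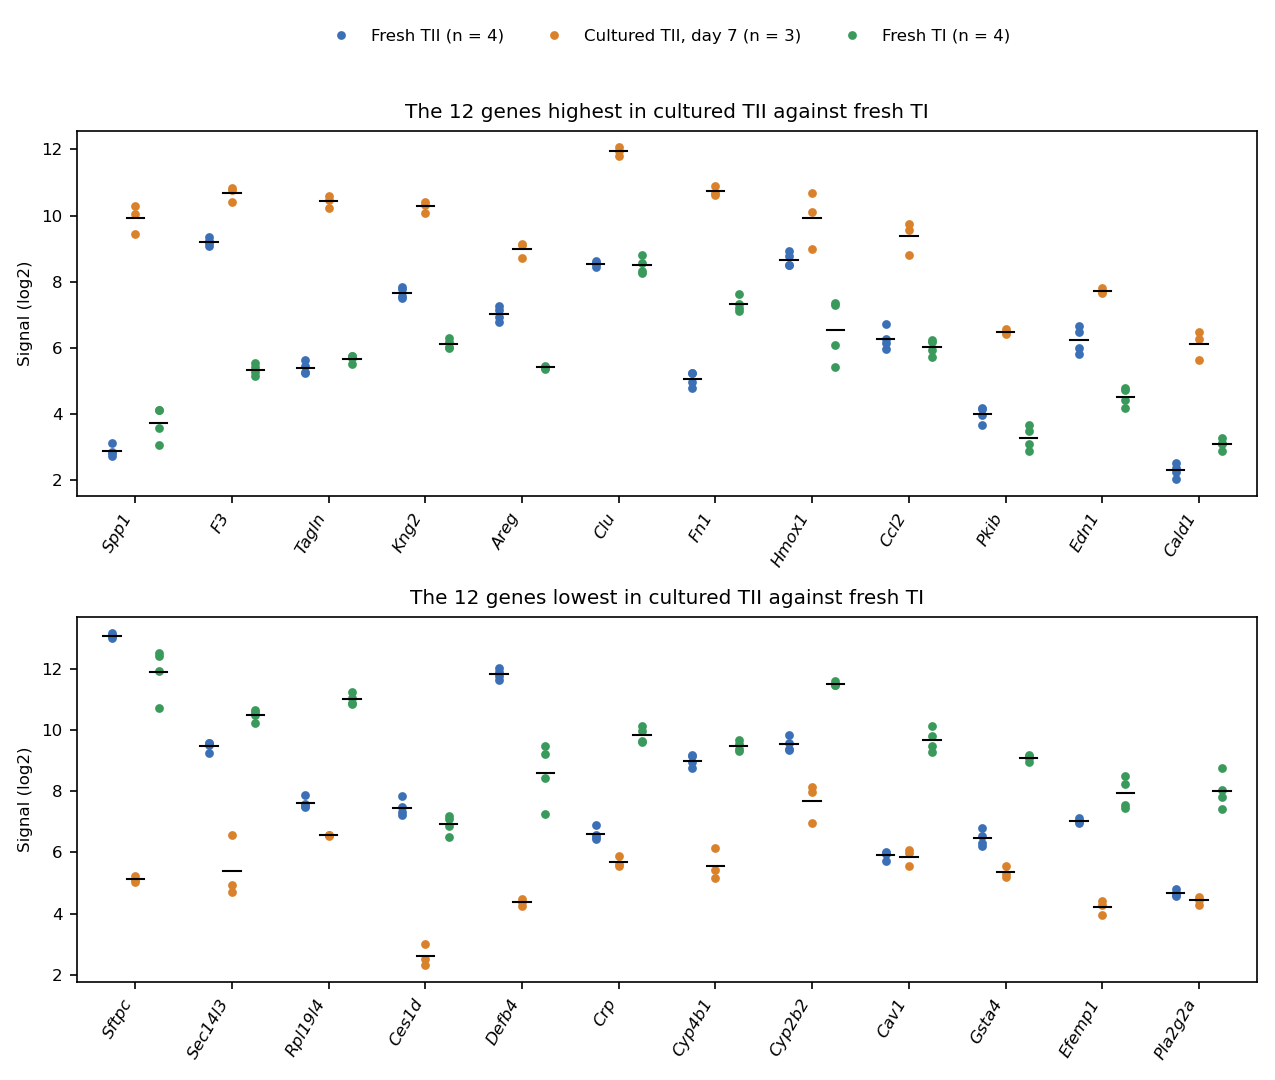
Signal (log2) on each array for the 12 called genes with the highest (top) and the 12 with the lowest (bottom) difference between cultured TII and fresh TI; points are arrays, bars group means. All 12 upper genes, from Spp1 to Cald1, lie above both fresh groups, and Cav1 of the lower genes overlaps fresh TII.

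Genes of the contractile cytoskeleton moved unevenly, beside 25.8% of all genes called higher and 34.2% lower. Of 32 measured, 17 were higher and 6 lower (median 0.36), and 15 lay above all fresh arrays; after quantile normalization 13 were higher and 7 lower (median 0.11), with a common SD the median was 0.13, and on probe sets without a suffix it was 0.11. Tagln (transgelin, an actin-binding protein of smooth muscle) read 10.60, 10.48 and 10.22 in culture, 5.76, 5.76, 5.52 and 5.69 in fresh TI and 5.24 to 5.65 in fresh TII. It was 26.9-fold higher (difference 4.75, SE 0.12, limma adjusted p = 3.31e-11), and a further probe set gave 4.58. Cald1 (caldesmon) was 6.12 ± 0.44 against 3.10 ± 0.16, and Acta1 (skeletal alpha-actin) 7.89 ± 0.47 against 5.37 ± 0.12. Tpm1 (tropomyosin 1) differed by 2.07 and 2.27 on a pair of probe sets, by 0.80 on another, and by -0.64 and -0.08 on the others; its isoforms share exons, and its probe sets gave both directions. Acta2 (smooth muscle alpha-actin), the usual myofibroblast mark, differed by 0.45, Cnn1 and Actb were not called (-0.07 and -0.02), and Myh11 (smooth muscle myosin) was lower, at -0.52. Tmsb4x (thymosin beta 4) was -1.07 and Tpm3 -0.86.

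The CArG box, the site of serum response factor, was searched on both strands in RefSeq promoter windows (GRCr8, 300 bases, 250 before to 50 after the start). It was found in 3 of 39 listed contractile genes with a window (7.69%: Acta1, Actc1 and Cnn2) and in 1.77% of 27457 genes. The AP-1 letters TGACTCA were in 2 of 39 (5.13%) and, for the matrix list, in 3 of 35 (8.57%), against 5.04% of all genes; the matrix list held no CArG box. Acta1, higher in culture by 2.52, is shown for the 250 bases before its start at chr19:68784195-68784444, minus strand, with the CArG box in capitals:
Acta1: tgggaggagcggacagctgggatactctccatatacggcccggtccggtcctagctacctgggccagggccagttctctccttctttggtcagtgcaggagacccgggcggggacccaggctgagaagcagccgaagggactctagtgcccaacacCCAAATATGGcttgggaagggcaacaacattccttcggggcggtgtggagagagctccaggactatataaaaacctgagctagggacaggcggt
Actc1 also holds the box and was lower in culture, at -0.29.

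Matrix genes also went both ways, where 25.8% of all genes were called higher and 34.2% lower. Of 34 measured, 16 were higher and 12 lower (median 0.19), with 15 above and 6 below all fresh arrays. Beside Spp1 and Fn1, the higher ones included Mgp (matrix Gla protein) at 9.76 ± 0.22 against 7.95 ± 0.37 and Bgn (biglycan) at 9.65 ± 0.10 against 7.88 ± 0.16. Spock2 (a proteoglycan high in fresh TI) read 7.92, 7.2 and 6.62 against 9.95, 9.995, 9.81 and 9.84, with 5.20 in fresh TII, and so reached only part of the TI level. Col3a1 and Eln (fibrillar collagen and elastin, products of fibroblasts and smooth muscle) were lower, at -3.28 for Col3a1 and -2.47 for Eln. Col3a1 differed within the culture as well, at 6.90, 6.85 and 4.40. Sparcl1 was lower, at -0.71. Among 24 proteases and inhibitors 7 were higher and 6 lower (median 0.04): Adam17 1.79, Mmp14 1.5, Timp1 1.04, and Mmp12 1.42 with cultured arrays at 3.46, 5.01 and 6.18 and no call without the third (0.77, limma adjusted p = 0.0546). Of 17 integrins and matrix receptors 7 were higher and 3 lower (median 0.17), with Cd63 at 1.94, Cd81 1.39, Itgb1 1.06, Sdc2 0.99 and Sdc1 0.96.

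Junction, filament and growth factor genes moved in both directions, as did all genes, of which 25.8% were called higher and 34.2% lower. Of 14 junction genes 4 were higher and 5 lower; beside Gja1, Epcam (an epithelial adhesion molecule) was 10.57 ± 0.21 against 8.22 ± 0.27, Cldn7 differed by 0.50, and Gjb1 and Cdh16 by -0.46 and -0.45. Of 19 intermediate filament genes 3 were higher and 8 lower; Krt18 and Krt8, of simple epithelia, were higher by 0.82 and 0.54, and Krt19, Prph and Krt5 lower, at -1.30, -0.82 and -0.58. Krt18 was not called without cultured TII replicate 1 (0.58, limma adjusted p = 0.0559). After quantile normalization neither Krt18 (0.48, limma adjusted p = 0.0917) nor Krt8 (0.11, limma adjusted p = 0.561) was called. Krt8 was also not called with a common SD (0.30, limma adjusted p = 0.107). Of 33 TGF-beta and BMP genes 14 were higher and 7 lower (median 0.08), led by Ltbp1 at 1.44, Fst at 1.18, Nog at 0.81 and Tsc22d1 at 0.66, with Id3 at -1.04. Of 13 insulin-like growth factor genes 1 was higher and 7 lower; beside Igfbp6, Igfbp5 was -2.01, Igfbp1 -0.66 and Igfbp3 -0.65. Igf1 was -0.37 on the probe set used, 1.23 and 0.96 on a pair of others, and 0.23 and -0.03 on the rest. Of 10 EGF family genes 2 were higher and 1 lower (Erbb3, -0.31); beside Areg, Nrg1 was 0.69, with 5 of its other probe sets at 0.49 to 1.97 and another at -0.51. Of 14 annexin and S100 genes 3 were higher and 7 lower, with S100g at -1.95, S100a9 at -1.80, S100a4 at -0.93, S100b at -0.89 and S100a8 at -0.84. S100a4 was not called without cultured TII replicate 3 or fresh TI replicate 1, 2 or 3 (-0.74 to -0.88).

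Genes of the endoplasmic reticulum (ER) that fold secreted proteins were higher nearly as a whole. Of 19 measured, 16 were called higher, 14 of them at least 2-fold, and 1 lower. The median was 1.21 against -0.11 over all genes, and 15 of the 19 lay above all 8 fresh arrays. Over all genes 25.8% were called higher (6.76% at least 2-fold), 34.2% were called lower and 16.3% lay above all fresh arrays. Pdia3 (a disulfide isomerase that works with calnexin) read 10.28, 10.37 and 10.07 in culture, 7.70, 7.97, 8.01 and 7.69 in fresh TI and 8.97 to 9.13 in fresh TII. The groups were far apart, with a difference of 2.40 (SE 0.10, limma adjusted p = 1.9e-09, 5.28-fold). Pdia4 read 8.42, 8.58 and 8.43 against 6.09, 6.42, 6.35 and 6.24, a 4.61-fold difference, with fresh TII at the TI level (6.26 on average). Hspa5 (BiP, the main ER chaperone) read 9.92, 9.87 and 9.61 against 7.79, 8.0, 7.82 and 7.25, with 8.95 on average in fresh TII, and was 4.24-fold higher (difference 2.08, limma adjusted p = 2.02e-07). Pdia6 differed by 1.75, Calu by 1.47, Hsp90b1 by 1.45 and Calr by 1.38. Dnajb9 (a co-chaperone of BiP) was higher by 0.89 than in fresh TI but below fresh TII, at 6.01, 5.13 and 6.68. Ddit3 and Pdia2 were not called (0.28 and -0.21), and Trib3 was lower (-0.53). The count of 16 higher and 1 lower was the same after quantile normalization, with a common SD and without fresh TI replicate 4.

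The ER stress response element, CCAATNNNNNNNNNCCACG, was looked for in the promoter windows on both strands. It was chosen after these values were seen, as 1 of 11 motifs looked at over 10 lists. Its counts are therefore a description, and its part in the differences was not tested. It was found in 6 of 24 ER list genes with a window (25.0%: Hspa5, Hsp90b1, Calr, Canx, Dnajc3 and Xbp1) and in 21 of 27457 genes (0.0765%). Of the 7 measured genes that hold it, the 4 ER list members were higher by 1.05 to 2.08, Hnrnpa3 by 0.41 and Ero1b by 0.21, and Foxd4 was not called (-0.06). The 4 windows are shown because their genes moved together; each gives the 250 bases before the start, with the element in capitals (Hsp90b1 holds it on both strands, and Calr on the opposite strand). They lie at chr3:38452766-38453015 (plus strand) for Hspa5, chr7:23012294-23012543 (minus) for Hsp90b1, chr19:40213117-40213366 (plus) for Calr and chr10:35157858-35158107 (minus) for Canx:
Hspa5: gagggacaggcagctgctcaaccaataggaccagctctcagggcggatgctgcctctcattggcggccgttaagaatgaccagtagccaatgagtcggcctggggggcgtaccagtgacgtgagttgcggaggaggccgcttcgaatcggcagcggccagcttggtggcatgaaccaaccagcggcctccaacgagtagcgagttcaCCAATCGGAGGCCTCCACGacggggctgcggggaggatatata
Hsp90b1: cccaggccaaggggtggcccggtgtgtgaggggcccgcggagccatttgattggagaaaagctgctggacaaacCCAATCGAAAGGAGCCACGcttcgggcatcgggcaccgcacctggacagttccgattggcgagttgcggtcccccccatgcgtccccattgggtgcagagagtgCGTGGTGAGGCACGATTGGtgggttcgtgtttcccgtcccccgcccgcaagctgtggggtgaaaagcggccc
Calr: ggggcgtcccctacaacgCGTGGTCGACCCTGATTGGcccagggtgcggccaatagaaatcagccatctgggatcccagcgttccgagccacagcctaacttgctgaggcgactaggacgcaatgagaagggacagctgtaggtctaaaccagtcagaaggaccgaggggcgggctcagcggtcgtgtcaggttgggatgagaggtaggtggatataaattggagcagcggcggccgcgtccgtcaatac
Canx: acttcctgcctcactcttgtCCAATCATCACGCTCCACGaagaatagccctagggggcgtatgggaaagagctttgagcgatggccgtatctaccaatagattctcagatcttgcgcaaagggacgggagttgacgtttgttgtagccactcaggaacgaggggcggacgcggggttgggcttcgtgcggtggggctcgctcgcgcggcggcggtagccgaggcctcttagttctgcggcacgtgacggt
Counted from the start, the element runs from -43 to -25 in Hspa5 and from -232 to -214 in Calr.

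Lysosomal genes were higher too: 19 of 22 measured were called higher and none lower (median 0.71), with 15 of the 22 above all fresh arrays. Over all genes 25.8% were called higher, 34.2% were called lower and 16.3% lay above all fresh arrays (median -0.11). Ctsd (cathepsin D) read 10.83, 11.84 and 12.32 in culture, 9.09, 9.63, 9.51 and 8.09 in fresh TI and 8.39 to 8.75 in fresh TII. The groups did not overlap, and the difference was 2.58 (SE 0.36, limma adjusted p = 7.03e-05, 6.0-fold). Ctsb was 10.99 ± 0.26 against 9.13 ± 0.33, Ctsl 8.69 ± 0.29 against 6.97 ± 0.29, and Ctss (a cathepsin of antigen-presenting cells) 8.90 ± 0.97 against 7.16 ± 0.80. After quantile normalization 13 were higher and none lower. Without cultured TII replicate 3, which read highest for Ctsd, 14 were higher and none lower (median 0.54).

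**Figure D4:**
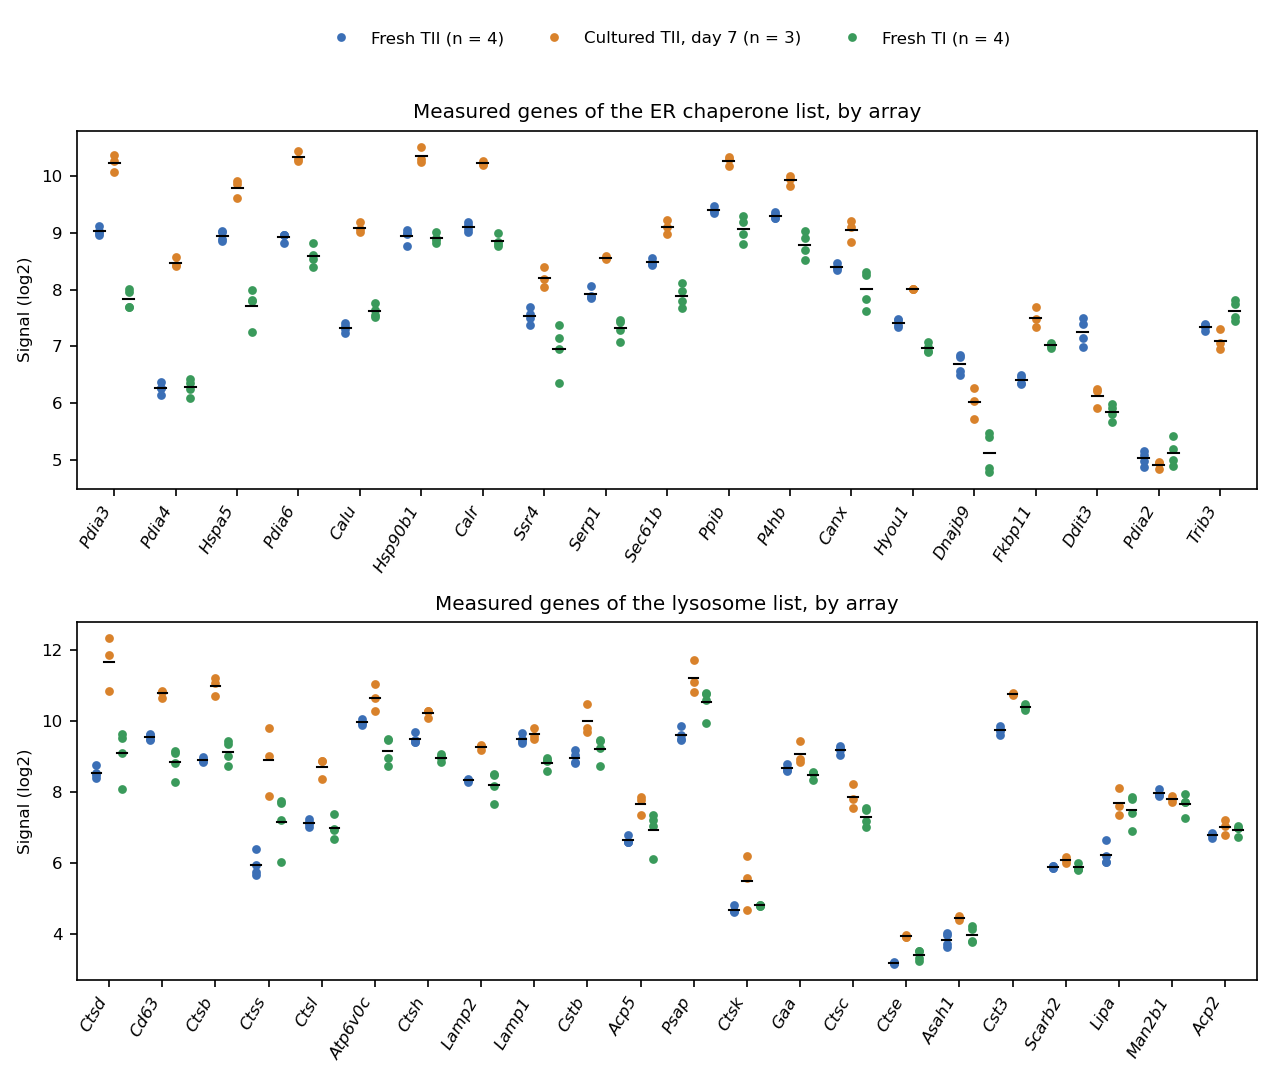
Signal (log2) on each array for the 19 measured ER chaperone genes (top) and the 22 lysosomal genes (bottom); points are arrays, bars group means. 15 ER genes, Pdia3 to Fkbp11, have all cultured arrays above all fresh arrays, and Ctsd of the culture spreads from 10.83 to 12.32.

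**Figure D5:**
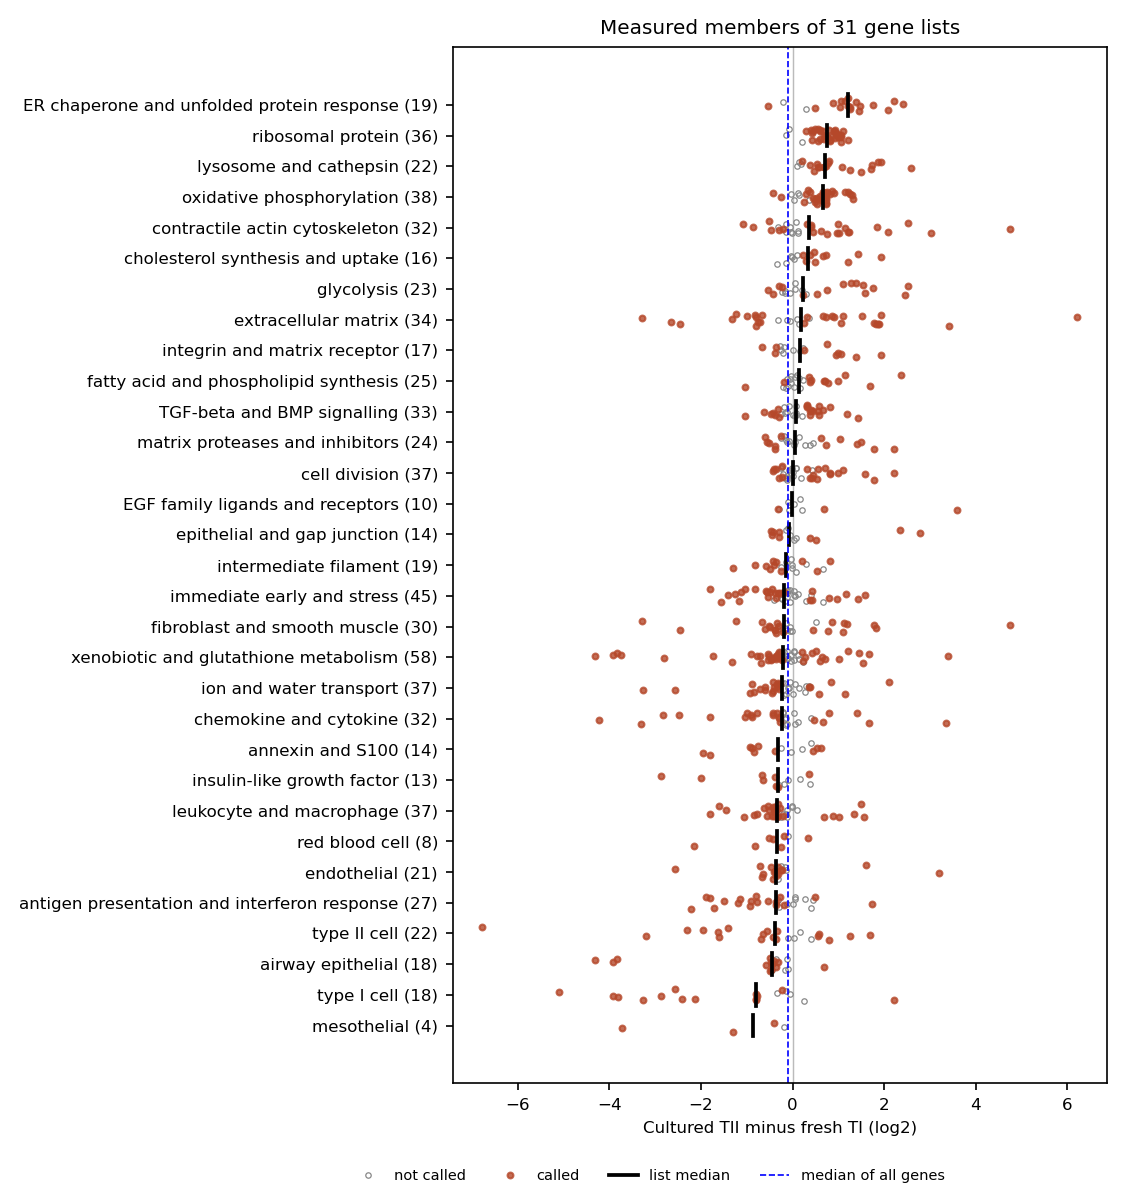
Difference between cultured TII and fresh TI (log2, horizontal) for each measured gene of 31 lists, with the number measured in brackets; filled points were called, bars are list medians and the dashed line is the median of all genes. ER chaperone genes have the highest median, 1.21, and TI genes, at -0.80, lie near the lowest.

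Ribosomal protein and oxidative phosphorylation genes were mostly higher, and glycolysis and lipid genes less evenly so. Over all genes 25.8% were called higher and 34.2% lower. Of 36 ribosomal protein genes 33 were higher and none lower (median 0.74), with Rps16 at 1.21, Rpl7a at 1.10, Rps6 at 1.07, Rpl27 at 1.06 and Rpl3 at 1.05. These are among the brightest probe sets, and with a common SD 26 were higher (median 0.45). Of 38 oxidative phosphorylation genes 31 were higher and 2 lower (median 0.66); Slc25a5 and Slc25a4 (the ATP/ADP carriers) differed by 1.31 and 1.30, Cox7b by 1.26, Ndufa4 by 1.21 and Atp5pb by 1.14. With a common SD 26 were higher and 3 lower, and after quantile normalization 25 were higher and 3 lower (median 0.36). Of 23 glycolysis genes 11 were higher and 4 lower (median 0.22), with Slc2a1 (the glucose transporter GLUT1) at 7.74 ± 0.29 against 5.23 ± 0.32, near the fresh TII mean of 7.56, and Aldoa at 2.46, Eno1 at 1.75, Pgk1 at 1.58 and Pfkp at 1.54 above all fresh arrays. Of 16 cholesterol genes 10 were higher and none lower (median 0.33): Msmo1 1.93, Ebp 1.42, Sqle 1.22 and Fdps 0.66. Cyp51 was 0.72, with other probe sets from -0.19 to 1.68. Of 25 fatty acid genes 10 were higher and 2 lower (median 0.14): Me1 2.37, Acsl5 1.14 and Chka 1.0 were higher and Scd (stearoyl-CoA desaturase) lower at -1.04, with 9.87 in fresh TII. Of 37 cell division genes 14 were higher and 6 lower (median 0.02); Ccng1 differed by 2.22, Cdkn2b (an inhibitor of the cell cycle) by 1.77, Cdk4 by 1.58, Stmn1 by 1.10 and Pcna by 0.99, while Top2a was not called (-0.13).

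Enzymes of detoxification were found in both directions and among the 12 lowest genes, with 25.8% of all genes higher and 34.2% lower. Of 58 xenobiotic and glutathione genes 23 were lower and 14 higher (median -0.21), and 17 lay below all fresh arrays. Ces1d (a carboxylesterase of lung epithelium) read 3.02, 2.31 and 2.50 in culture, 6.88, 7.08, 7.2 and 6.50 in fresh TI and 7.21 to 7.84 in fresh TII, and was 19.8-fold lower (difference -4.30, limma adjusted p = 4.87e-09). Gsta4 (a glutathione transferase) was 5.36 ± 0.19 against 9.10 ± 0.11, and Cyp2b2 7.68 ± 0.64 against 11.51 ± 0.06; Cyp2b2 shares near-identical copies, so its probe set may read several genes. Efemp1 (fibulin-3) was 13.2-fold lower and Pla2g2a (a secreted phospholipase) 12-fold lower, at 4.22 ± 0.24 against 7.94 ± 0.52 and 4.43 ± 0.12 against 8.01 ± 0.57. Rpl19l4 and Crp are among the lowest by rule, at -4.45 and -4.14, but their probe sets read repeated or related transcripts, and the other Crp probe sets gave -4.02 and -0.34.

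Inflammatory and early response genes went both ways, with 34.2% of all genes lower and 25.8% higher. Of 32 chemokine and cytokine genes 16 were lower and 6 higher (median -0.24). Defb4 (a beta-defensin) was 4.36 ± 0.11 against 8.60 ± 1.0 and 11.82 in fresh TII, 18.8-fold below fresh TI. Cxcl3 read 2.35, 2.30 and 2.26 against 5.02, 6.79, 6.79 and 3.88, Cxcl2 differed by -2.48 and Il1b by -2.84. Ccl2 (a monocyte attractant) went the other way, at 8.81, 9.57 and 9.74 against 5.94, 6.25, 6.18 and 5.73, a difference of 3.35 (limma adjusted p = 1.07e-07). Of 45 immediate early genes 18 were lower and 8 higher (median -0.18), with 15 below all fresh arrays: Nfkbia -1.80, Nr4a1 -1.56, Fos -1.41 and Egr1 -1.25 were lower, while Dusp6 1.58 and Myc 1.42 were higher. The CArG box was in 5 of 48 early response genes with a window (10.4%), against 1.77% of all genes with a window. Of the 5, Egr1, Egr2, Klf6 and Zfp36 were lower in culture and Dusp5 was not called. The box was looked for in this list with the values in view, and its part in the differences was not tested. Of 27 antigen presentation genes 16 were lower and 2 higher (median -0.36); RT1-Da and Cd74 (MHC class II and its chaperone) differed by -2.22 and -1.72, Ifitm3 by -1.89 and Irf7 by -1.80. Of 37 ion and water transport genes 17 were lower and 6 higher (median -0.22); Scnn1a (the alpha subunit of the sodium channel) was -0.92, while Atp1b1 and Atp1b3 (sodium pump beta subunits) were 2.12 and 1.14.

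Markers of other lung cells moved with the comparison, and their part in the results was not tested. The shares over all genes were 25.8% higher and 34.2% lower. Of 37 leukocyte genes 22 were lower and 6 higher (median -0.34), with a list mean of 5.04 to 5.34 on cultured and 5.29 to 5.47 on fresh TI arrays. Ptprc (CD45) was lower, at 5.33, 5.35 and 5.40 against 5.79 to 6.19. Cd53, Cd14 and Itgam were higher, by 1.33, 0.88 and 0.69; Cd53 read 5.69, 6.47 and 7.63 in culture and 4.37 to 5.87 in fresh TI. Csf1r was not called (-0.13). Cyba 1.56 and Cd48 1.49 were higher as well, and Coro1a -1.46 lower. Of 21 endothelial genes 15 were lower and 2 higher (median -0.36, list mean 5.34 to 5.40 against 5.51 to 5.69), with Kdr at -0.66, Ace at -0.39, Vwf at -0.36 and Pecam1 at -0.25, and Fabp4 higher at 1.59. Of 30 fibroblast and smooth muscle genes 13 were lower and 9 higher (median -0.18, list mean 6.31 to 6.62 against 6.35 to 6.54); Col1a1 and Lum were not called (-0.32 and -0.05), Pdgfra was -0.50, Thy1 -0.39 and Dcn 1.10. Of 18 airway genes 12 were lower and 1 higher (list mean 5.16 to 5.45 against 6.15 to 6.33); the higher gene was Scgb1a1 (the club cell secretoglobin) at 8.40 ± 0.30 against 7.71 ± 0.21, with 11.02 in fresh TII. Of 4 mesothelial genes 3 were lower and none higher, with Wt1 not called (-0.20), and of 8 red cell genes 6 were lower and 1 higher, with Hbb at 5.39 ± 0.13 against 7.54 ± 0.47. Cd68, Marco, Cdh5, Tek and Msln were not among the genes measured here.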

How the data were processed

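RNA of 11 rat samples was measured on Affymetrix expression arrays after cDNA synthesis and biotin labelling, per the labels. The deposited table gives 1 log2 value per probe set and array, as processed by the authors; the base was read from the values, and their summary and normalization steps are not given in the sources used here. No value was changed. Of 8799 probe sets 59 were controls, and 8740 were tested with no filter. The probe annotation gave 1 gene for 7006 (6985 of them found in RefSeq, GRCr8), several for 308 and none for 1426; the probe set with the highest mean stood for a gene.

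In limma 3.58.1 (lmFit and eBayes, two-sided, R 4.3.3) 3 group means were estimated from the 11 arrays together, and p-values were adjusted over 8740 probe sets. The comparison and the 31 gene lists were chosen with earlier results of these data known. Named are the 12 highest and 12 lowest non-overlapping called genes, all measured TI and TII list genes, up to 5 called genes of each other list, the 6 widest gaps above and the 6 below all fresh arrays, 6 genes nearest the TI level and the cell type markers; that the 6 nearest were ranked by the farther end of the 95% interval was settled after the data were seen. Other genes named from a list (among them Tmsb4x, Tpm3, Trib3, Actb, Cnn1 and Hnrnpa3) were picked after their values were seen. The procedure was tested on simulated data. No set test was run.

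Replicate numbers were checked as pairs and not used: deviations from the group means correlated from -0.04 to 0.16 for the 3 same-numbered cultured and TI pairs. Alternatives were 3 other scalings, 2 filters on dim probe sets, other eBayes settings, a 2-group fit, array weights, a replicate block, a stricter threshold, another choice among a gene's probe sets, and the omission of each array. The number of arrays limits the precision.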

Additional observations from a re-analysis of the deposited data

Results flagged for a closer look

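Among 175 named genes, 4 had 1 fresh TI array far from the other 3 (gap over range above Dixon's 95% critical value); chance flags about 1 in 20 groups. Coro1a (ratio 0.905) read 6.68 on fresh TI replicate 4 and 7.84 to 7.96 on the others. RT1-Da (0.881) read 7.75 there and 8.85 to 9.0 on the others, and Cebpd (0.881) 6.10 against 6.39 to 6.43. Nrg1 (0.94) read 6.86 on fresh TI replicate 2 and 6.68 to 6.69 on the others. Without fresh TI replicate 4 the differences of Coro1a, RT1-Da and Cebpd were -1.77, -2.52 and 0.73, each still called by limma.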

How the results depend on the processing

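Of 4168 values for 175 named genes under the alternatives, 4078 kept direction and side of the threshold, 52 were no longer called, 11 became called and 27 changed sign. With probe sets below the median brightness left out, 2993 were called, 1375 of them lower, and 312 genes were below all fresh arrays. At an adjusted p under 0.01, 2022 were lower. With the replicate block 4754 probe sets were called, 2026 higher and 2728 lower. Leaving out 1 array gave 4543 to 5468 calls, 1965 to 2116 higher and 2578 to 3352 lower, and 504 to 695 genes below all fresh arrays. The GAPDH 3' minus 5' difference was 0.032 after quantile normalization. Signs changed for Zfp36l1 (-0.15 quantile, -0.018 common SD, -0.11 mean of probe sets), Gnb1 (0.0013 centred, 0.015 array weights, 0.47 mean, 0.33 without suffix), Bmp3 (0.026 weights, 0.033 mean), Fgfr2 (-0.073 mean, -0.32 without suffix), Igf1 (0.40 mean), and, on a probe set without a suffix, Cebpd (-0.041), Cyp51 (-0.19), Nrg1 (-0.51) and Tpm1 (-0.080). Leaving out 1 array gave Fgfr2 -0.13 to 0.16, Zfp36l1 -0.051 to 0.24, Cldn3 -0.29 to 0.21, Gnb1 -0.11 to 0.041, Il18 -0.048 to 0.98 and Scnn1g -0.30 to 0.0038; Scnn1g was called without cultured TII replicate 1. The causes were not tested. The number of arrays limits these calls, and signal over background is not known for the deposited values.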
